A study of Mus musculus with 24 samples.

Results

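The 10 genes described here mark the steps by which new granule neurons arise in the adult dentate gyrus and the mature granule cells they join: Dcx, Sox11, Neurod1, Eomes, Mki67, Top2a, Prox1, Calb1, Dsp and C1ql2. They were chosen by symbol, and every non-control probe whose RefSeq accession belongs to one of them was taken, which gave 15 probes of 10 genes out of 22907 named genes on the array. All 15 probes passed the filter on dim signal (well above background on at least 3 arrays), and 10 of the 15 were well above background on all 24 arrays. Sox11, Dcx, Eomes, Top2a and Calb1 had 2 probes each, and counts of genes rest on the brighter probe of each gene.

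The dentate gyrus keeps a pool of radial glia-like stem cells in its subgranular zone throughout adult life. These cells give rise to dividing intermediate progenitors, then to neuroblasts and immature neurons, and the survivors become granule cells that send mossy fibres to CA3. Mki67 and Top2a are made in cycling cells of any type, Eomes marks intermediate progenitors, Neurod1, Sox11 and Dcx accompany neuronal commitment and immaturity, and Prox1, Calb1, Dsp and C1ql2 are carried by granule cells. Mouse models of amyloid deposition have long been studied for changes in this lineage.

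Hippocampi came from 24 male mice in 6 groups, each hybridised to 1 one-colour Agilent array. The wild type groups carry no transgene, and the APP/PS1 groups carry the transgenes of that amyloid model, which are driven by the mouse prion promoter, so that neurons and other cells express them from early life. The labels name the same transgenic strain for every mouse, wild type mice included, and give the genotype separately. At the end of treatment, labelled as 8 months of age, there were 4 wild type mice on water (WT_CTR), 3 APP/PS1 mice on water (APP-PS1_CTR) and 4 APP/PS1 mice given urolithin A, a gut bacterial metabolite of ellagitannins (APP-PS1_UA). After a washout of 1 month, labelled as 9 months of age, there were 5 wild type mice (WT_WASHOUT), 3 untreated APP/PS1 mice (APP-PS1_WASHOUT) and 5 APP/PS1 mice formerly on urolithin A (APP-PS1_UA-WASHOUT). Gavage ran from 2 to 7 months of age. The labels disagree on the dose, with 200 mg/kg/day stated among the treatment details and 20 mg/kg/day in the design text. The design text also places the first collection at 7 months. No wild type mouse received urolithin A.

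The arrays lay on 3 slides of 8. All WT_CTR and APP-PS1_CTR arrays were on slide 1 together with a single treated array, APP-PS1_UA replicate 1. There all WT_CTR arrays lay in array row 1 and all APP-PS1_CTR arrays in array row 2, so genotype and row cannot be told apart within slide 1. The remaining treated arrays shared slide 2 with WT_WASHOUT, and the transgenic washout groups made up slide 3. The comparison of APP/PS1 with wild type after washout is therefore also a comparison of slide 3 with slide 2, and genotype and slide cannot be told apart there. On slide 3 all APP-PS1_WASHOUT arrays and APP-PS1_UA-WASHOUT replicate 1 lay in array row 1. The other APP-PS1_UA-WASHOUT arrays lay in row 2, so former treatment and row can barely be told apart. The APP-PS1_UA arrays on slide 2 lay in row 1, unlike the APP-PS1_CTR arrays. Between 63.7% and 76.9% of probes were well above background per array, and no spot was saturated. Pairs of arrays of one group correlated at 0.976 to 0.991. Every level below is a log2 signal relative to the 75th percentile of its array, so that 0 is the signal of that percentile and each step of 1 is a doubling. Levels of different probes cannot be compared. The number of arrays, 3 to 5 per group, limits the precision, and whether p-values reflect more than the spread between these mice cannot be told from the labels.

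The stretches upstream of Mki67 and Top2a are shown because these cell cycle genes moved together from mouse to mouse. Both are RefSeq sequences of GRCm38.p6 on the minus strand, printed 5′ to 3′ and ending where the annotated gene begins, with 179 bases for Mki67 at chr7:135716451-135716629 and 240 bases for Top2a at chr11:99024200-99024439. Capitals mark CCAAT and the cell cycle genes homology region (TTTGAA or TTCGAA), on either strand.
Mki67: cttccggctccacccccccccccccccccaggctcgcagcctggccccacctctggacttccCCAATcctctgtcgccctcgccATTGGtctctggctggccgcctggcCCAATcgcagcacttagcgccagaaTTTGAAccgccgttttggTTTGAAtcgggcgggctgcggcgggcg
Top2a: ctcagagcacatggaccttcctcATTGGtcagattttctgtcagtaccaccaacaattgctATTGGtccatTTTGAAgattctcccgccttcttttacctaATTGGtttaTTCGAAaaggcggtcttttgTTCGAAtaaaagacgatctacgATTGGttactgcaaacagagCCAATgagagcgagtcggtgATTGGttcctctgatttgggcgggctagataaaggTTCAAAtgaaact
In the 250 bases before each RefSeq start, Mki67 had 3 CCAAT matches and 2 matches of the homology region, and Top2a had 6 and 4. Of 32851 such windows in the table, 33.8% held CCAAT and 17.1% held TTTGAA or TTCGAA. A match describes the letters and not a bound site. Windows for 9 of the 10 genes were in the table. Sox11 had 1 match of each kind, Eomes had 2 of CCAAT, 1 of the 2 Dcx windows had 1 of CCAAT, and Neurod1, Prox1, Dsp and C1ql2 had none of either. The E-box of NeuroD factors (CAGATG, either strand) was in 14.4% of windows and, among these genes, in 1 of the 2 windows of Prox1.

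The genes lie at chrX:143855842-143933396 (Dcx), chr12:27334268-27342718 (Sox11), chr2:79452637-79456636 (Neurod1), chr9:118478186-118486132 (Eomes), chr7:135689784-135716450 (Mki67), chr11:98992947-99024199 (Top2a), chr1:190118035-190170827 (Prox1), chr4:15881264-15906709 (Calb1), chr13:38151294-38198577 (Dsp) and chr1:120340582-120343174 (C1ql2) in GRCm38.p6. The probe with the brighter signal was A_52_P244349 for Dcx, A_55_P2094721 for Sox11, A_55_P2908538 for Neurod1, A_55_P2150717 for Eomes, A_51_P253803 for Mki67, A_66_P120837 for Top2a, A_66_P101490 for Prox1, A_51_P335801 for Calb1, A_51_P101460 for Dsp and A_52_P483959 for C1ql2.

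**Figure D1:**
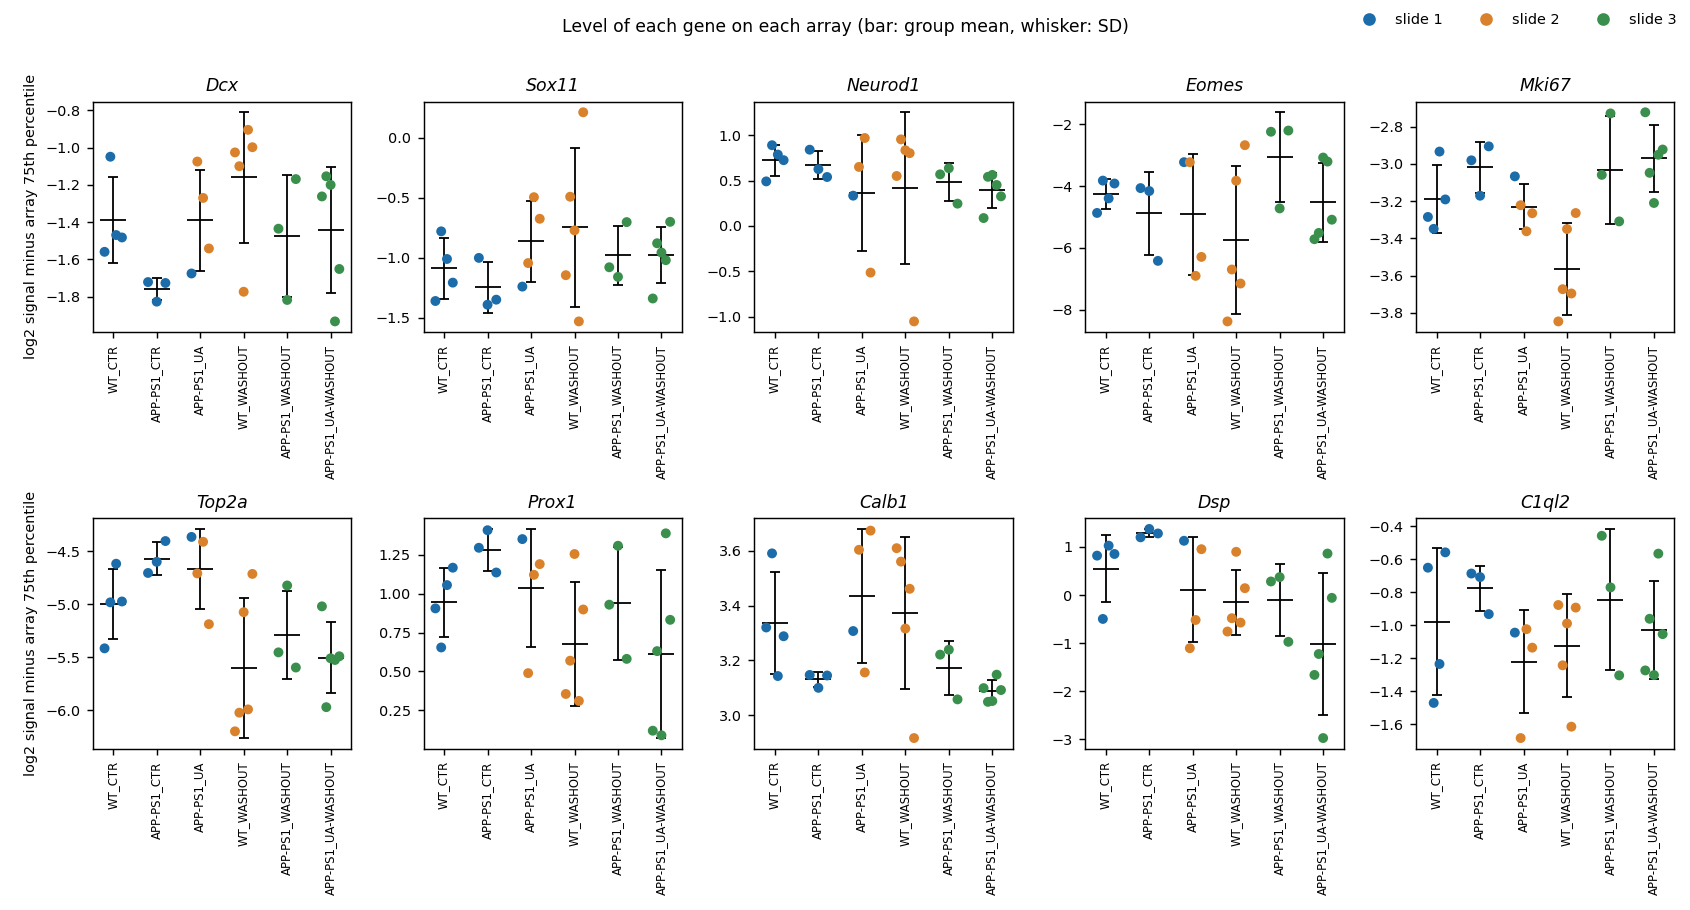
Level of each gene on each array, as log2 signal minus the array's 75th percentile, in the 6 groups. Each dot is 1 mouse, coloured by slide, and the bar and whiskers are the group mean and SD. The WT_WASHOUT arrays of Mki67 sit between -3.85 and -3.26 and have the lowest group mean, and the 3 APP-PS1_CTR arrays of Dsp sit between 1.20 and 1.37, above all 4 WT_CTR arrays.

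Across the study the brighter probes spanned from 0.76 log2 units over the 24 arrays for Calb1 to 4.34 for Dsp and 6.17 for Eomes. APP-PS1_CTR had the highest mean of the 6 groups for Top2a, Prox1, Dsp and C1ql2 and the lowest for Dcx and Sox11. WT_WASHOUT had the highest mean for Dcx and Sox11 and the lowest for Eomes, Mki67 and Top2a. Neighbouring groups in the order of means overlapped for every gene, with 1 exception, which was Dsp in APP-PS1_CTR against the next group, WT_CTR.

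The first comparison asks whether the transgenes went with a different level of these genes at the end of treatment (APP-PS1_CTR against WT_CTR, all on slide 1 but in different array rows). None of the 10 genes changed at an adjusted p under 0.05 in limma, and 0.152% of all probes tested were called in this comparison. With array row as a block 0.0205% of all probes were called. At an unadjusted p under 0.05 there were 0 of the 10 genes and 6.81% of all probes. The adjusted p-values ran from 0.771 to 0.982. The median difference of the 10 genes was 0.06, beside -0.02 over all probes, with 5 genes above 0 and 5 below. The groups did not overlap for 2 of the 10 genes, Dcx and Dsp, against 9.16% of all probes. Dcx and Dsp ran opposite to each other from mouse to mouse within groups (r = -0.85), so they do not count as separate results.

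Dcx, which encodes the microtubule-binding protein doublecortin of neuroblasts, was at -1.56, -1.05, -1.47 and -1.48 in the WT_CTR mice and at -1.72, -1.83 and -1.73 in the APP-PS1_CTR mice. All 3 transgenic arrays lay below the 4 wild type arrays. The difference was -0.37 (SE 0.22, 95% interval -0.82 to 0.09, adjusted p = 0.771). The second Dcx probe, above background on 16 of 24 arrays, differed by -0.81 (adjusted p = 0.744), with overlapping groups. Sox11, a transcription factor of immature neurons, differed by -0.16 and Neurod1, a basic helix-loop-helix factor needed for granule cell differentiation, by -0.05. Both overlapped between the groups.

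Of the granule cell genes, Dsp, Prox1 and C1ql2 had differences above 0 and Calb1 below 0, and none passed the test. Dsp, which encodes the desmosomal protein desmoplakin and in hippocampus is most abundant in granule cells, was at 0.82, -0.50, 1.02 and 0.85 in WT_CTR and at 1.20, 1.37 and 1.28 in APP-PS1_CTR. A single wild type mouse, replicate 2, was far below the other 3, and the transgenic arrays all lay above the wild type arrays. The difference was 0.73 (SE 0.70, interval -0.72 to 2.19, adjusted p = 0.848). Prox1, the homeobox factor that specifies and maintains granule cell identity, was at 0.91, 0.65, 1.06 and 1.17 against 1.30, 1.41 and 1.14. Its groups overlapped, and the difference was 0.33 (SE 0.28, adjusted p = 0.830). C1ql2, a secreted complement-like protein of mossy fibre synapses, differed by 0.20 (SE 0.25), and Calb1, the calcium buffer calbindin of mature granule cells, CA1 cells and some interneurons, by -0.20 (SE 0.14).

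Genes of dividing cells and intermediate progenitors did not pass the test either. Mki67, the proliferation antigen of cycling nuclei, was at -3.29, -3.35, -2.93 and -3.19 in WT_CTR and at -2.98, -3.17 and -2.91 in APP-PS1_CTR, a difference of 0.17 (SE 0.15, interval -0.15 to 0.49). Top2a, the DNA topoisomerase of replicating cells, differed by 0.43 (SE 0.32, interval -0.23 to 1.09). Eomes, the T-box factor of intermediate progenitors, differed by -0.63 (SE 1.20, interval -3.12 to 1.86), an interval too wide to bound its change. Groups overlapped for all 3 genes.

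Other genes of the lineage, taken from lists of markers, gave few calls at this stage. None of 13 radial glia-like stem cell genes, 21 cell cycle genes, 18 genes of progenitors and immature neurons or 14 further genes of mature granule cells changed (limma), with 1, 2, 1 and 2 at an unadjusted p under 0.05. The median difference of the 14 granule cell genes was 0.39 and that of the 18 progenitor and immature neuron genes was -0.20. Rasgrp1, the brightest of the granule cell genes, went from a mean of 4.52 in WT_CTR to 4.91 in APP-PS1_CTR. The summed linear signal of the granule cell genes, in units of the array's 75th percentile, was 65.8 to 87.1 in WT_CTR and 97.5 to 115 in APP-PS1_CTR. That of 8 oligodendrocyte progenitor genes was also higher without overlap, at 40.8 to 50.3 and 52.9 to 56.6, with 0 of 8 called in limma and 1 at an unadjusted p under 0.05. The median difference of these 8 genes was -0.01. Bcas1, the brightest of them, went from a mean of 4.66 in WT_CTR to 5.16 in APP-PS1_CTR. The sums of the cell cycle genes (26.9 to 30.3 and 25.1 to 26.5) and of 5 Cajal-Retzius genes (2.97 to 3.53 and 2.60 to 2.83) were lower in APP-PS1_CTR without overlap. The median difference of the 21 cell cycle genes was 0.10, opposite in sign to their sum, and that of the Cajal-Retzius genes was -0.25. Ccnd2, the brightest gene of the cell cycle list, went from a mean of 3.75 in WT_CTR to 3.36 in APP-PS1_CTR. What part these lists had in the differences above was not tested. Of 33 niche signals and receptors, 1 rose: Igf1, a growth factor that acts on neural progenitors and that microglia also make, by 0.77 (SE 0.14, adjusted p = 0.0361). Among 11 microglial genes 5 rose, led by Cst7, a cystatin of plaque-associated microglia, by 5.92 (SE 0.37), and the summed microglial signal was 25.8 to 30.2 in WT_CTR and 41.0 to 43.5 in APP-PS1_CTR. What part microglia had in the Igf1 difference was not tested. In whole hippocampus, fewer cells of a type and less RNA per cell cannot be told apart.

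**Figure D2:**
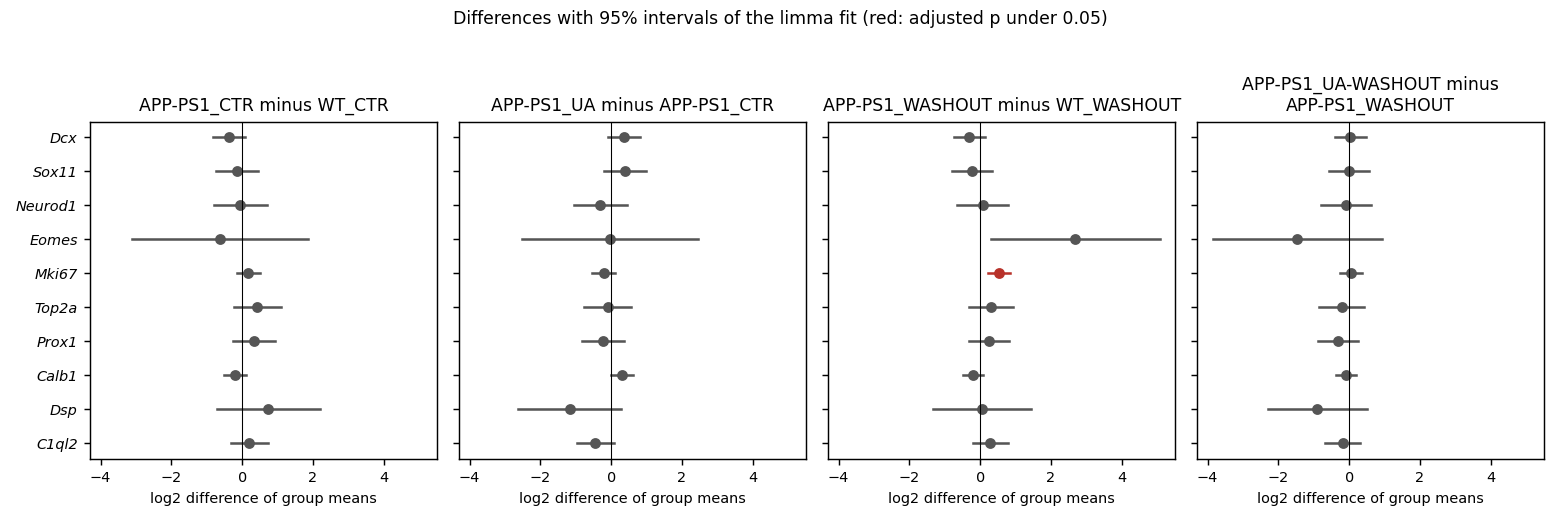
Log2 difference of group means for each gene in 4 comparisons, with the 95% interval of the limma fit. Dots in red have an adjusted p under 0.05. The single red dot is Mki67 in APP-PS1_WASHOUT minus WT_WASHOUT, at 0.53, and the widest intervals belong to Eomes and Dsp.

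The second comparison asks whether urolithin A moved these genes in APP/PS1 mice at the end of treatment (APP-PS1_UA against APP-PS1_CTR). None of the 10 genes changed in limma, where 0% of all probes were called and 3492 probes, or 7.94%, had an unadjusted p under 0.05. Of the 10 genes 1, Calb1, had an unadjusted p under 0.05. The adjusted p-values ran from 0.628 to 0.997, and the median difference was -0.15 beside -0.01 over all probes. The groups did not overlap for 4 of the 10 genes, Dcx, Calb1, Dsp and C1ql2, against 11.6% of all probes. Within groups Dsp varied from mouse to mouse opposite to Dcx (r = -0.85) and along with C1ql2 (r = 0.63). Those 3 genes therefore do not count as separate results. Both transgene and treatment comparisons at this stage share the 3 APP-PS1_CTR arrays, which lay close together for Dcx, Calb1, Dsp and C1ql2, so their differences are not independent.

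Calb1 was at 3.15, 3.1 and 3.15 in the APP-PS1_CTR mice and at 3.31, 3.60, 3.16 and 3.67 in the treated mice. The treated arrays all lay above the untreated ones, the closest by less than the spread within either group. The difference was 0.30 (SE 0.14, interval 0.00254 to 0.606, adjusted p = 0.628). The second Calb1 probe differed by -0.01 (SE 0.41).

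C1ql2 was at -0.69, -0.71 and -0.93 without treatment and at -1.04, -1.68, -1.02 and -1.14 with it. Treated mice were all lower, and the difference was -0.45 (SE 0.25, interval -0.96 to 0.07, adjusted p = 0.660). Dsp was at 1.13, -1.10, -0.52 and 0.95 in treated mice, below the 1.20 to 1.37 of the untreated mice. Treated mice split into a pair near the untreated level and a pair far below it, and the difference was -1.17 (SE 0.70, adjusted p = 0.684). Prox1 was at 1.35, 0.49, 1.12 and 1.19 in treated mice and differed by -0.24 (SE 0.28), with overlap.

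Dcx was at -1.68, -1.07, -1.27 and -1.54 in treated mice, all above the untreated range of -1.83 to -1.72. The difference was 0.37 (SE 0.22, interval -0.09 to 0.82, adjusted p = 0.681), and the second Dcx probe differed by 1.08 (SE 0.41, adjusted p = 0.589), again without overlap. Sox11 differed by 0.38, Neurod1 by -0.31, Eomes by -0.03, Mki67 by -0.21 and Top2a by -0.10, all with overlapping groups.

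Treated arrays were spread over slides 1 and 2, and the untreated arrays were all on slide 1. The treated arrays on slide 2 also lay in array row 1, and the untreated arrays in row 2. Within slide 1, where 1 treated array met 3 untreated arrays, the differences were 0.08 for Dcx, 0.18 for Calb1, -0.16 for Dsp, -0.27 for C1ql2, 1.65 for Eomes, 0.21 for Top2a and 0.07 for Prox1. Those of Prox1, Eomes and Top2a had turned sign. A fit with slide as a fixed block gives those same values, since only that array links the slides, and calls none of the 10 genes. All these values rest on 1 treated mouse.

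In the lists, none of the 14 further granule cell genes, 18 progenitor and immature neuron genes, 21 cell cycle genes, 13 stem cell genes or 33 niche genes changed with treatment (limma), with 2, 1, 2, 1 and 2 at an unadjusted p under 0.05. The median difference was -0.38 for the granule cell genes and 0.14 for the progenitor and immature neuron genes. Rasgrp1, the brightest of the granule cell genes, went from a mean of 4.91 in APP-PS1_CTR to 4.27 in APP-PS1_UA. Summed granule cell signal was 64.2 to 90.6 in treated mice, below the 97.5 to 115 of the untreated mice. The oligodendrocyte progenitor sum was likewise lower without overlap, at 36.3 to 45.3 against 52.9 to 56.6, with 0 of 8 genes called in limma and 2 at an unadjusted p under 0.05. Bcas1, the brightest of these genes, went from a mean of 5.16 in APP-PS1_CTR to 4.62 in APP-PS1_UA. The CA1 sum was higher, at 40.6 to 57.8 against 35.5 to 40.0. Median differences were -0.12 for the oligodendrocyte progenitor genes and 0.05 for the CA1 genes. The summed signal of 11 choroid plexus and ependymal genes, a measure of tissue taken along at dissection, was 138 to 220 in APP-PS1_CTR and 16.6 to 292 in APP-PS1_UA, and the part of these lists in the differences above was not tested.

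After washout, APP/PS1 and wild type mice were compared again (APP-PS1_WASHOUT against WT_WASHOUT). Mki67 was higher in the APP/PS1 mice, by 0.53 on the log2 scale or 1.45-fold (SE 0.15, interval 0.23 to 0.84, adjusted p = 0.0109), and the other 9 genes did not pass the test. That is 1 of 10 genes in a comparison where 25.8% of all probes were called, and where 18.6% were called higher. Of the 10 genes 2, Mki67 and Eomes, had an unadjusted p under 0.05, as did 36.6% of all probes. The groups overlapped for all 10 genes, whereas 29.5% of all probes had groups without overlap. The median difference was 0.16, beside 0.07 over all probes.

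Mki67 was at -3.85, -3.67, -3.35, -3.70 and -3.26 in WT_WASHOUT and at -3.06, -2.73 and -3.31 in APP-PS1_WASHOUT. The group means were -3.57 ± 0.25 (SD, n = 5) and -3.03 ± 0.29 (SD, n = 3), and APP-PS1_WASHOUT replicate 3 fell inside the wild type range. The wild type washout mice stood lowest of all 6 groups, and the APP/PS1 mice were near the -3.19 ± 0.18 (SD, n = 4) of WT_CTR. The call was lost without APP-PS1_WASHOUT replicate 2, where the difference was 0.38 (adjusted p = 0.104), and leaving out each of the other 7 arrays in turn gave 0.46 to 0.67. It was also lost when arrays were scaled by their median (0.32, adjusted p = 0.119), by quantile normalization (0.35, adjusted p = 0.102) or by normexp with quantile normalization (0.20, adjusted p = 0.153). Of the probes called in this comparison 72.0% were higher in APP/PS1 mice, and 39.0% with median scaling, under which the median of all probes moved from 0.07 to -0.14. The share of probes well above background was 70.5% to 71.6% in WT_WASHOUT and 73.8% to 76.9% in APP-PS1_WASHOUT, and its part in the Mki67 difference was not tested.

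**Figure D3:**
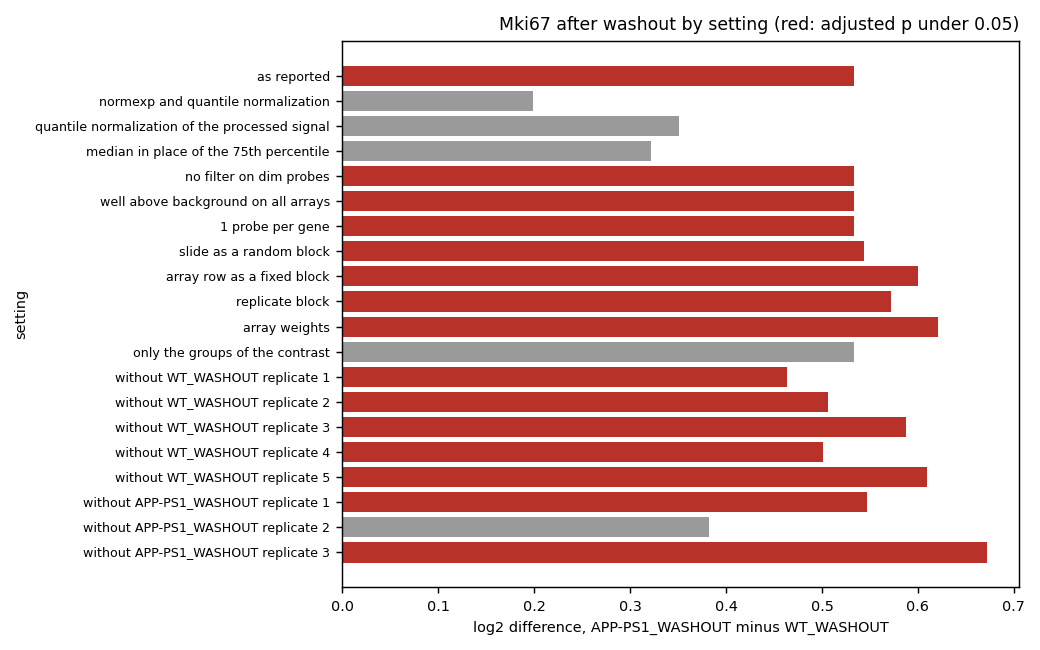
Log2 difference of Mki67 between APP-PS1_WASHOUT and WT_WASHOUT under each setting of the analysis that keeps the log2 scale. Bars in red have an adjusted p under 0.05. The differences run from 0.20 with normexp and quantile normalization to 0.67 without APP-PS1_WASHOUT replicate 3, all above 0, and the call is lost in 5 of the settings drawn.

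Top2a did not follow Mki67 past the threshold. It was at -6.20, -6.02, -5.07, -5.99 and -4.71 in WT_WASHOUT and at -5.45, -4.82 and -5.60 in APP-PS1_WASHOUT. The wild type mice covered the whole transgenic range, and the difference was 0.31 (SE 0.30, interval -0.32 to 0.94, adjusted p = 0.497). The second Top2a probe, above background on 6 of 24 arrays, differed by 0.98 (SE 0.67).

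Eomes was at -8.37, -6.70, -3.83, -7.15 and -2.68 in WT_WASHOUT, where 3 of 5 arrays were not well above background. In APP-PS1_WASHOUT it was at -2.25, -4.72 and -2.21, with all 3 above background. The difference was 2.69 (SE 1.14, interval 0.30 to 5.07, adjusted p = 0.0913). Without WT_WASHOUT replicate 5, the brightest of its group, it was 3.45 with an adjusted p of 0.0242. Leaving out each of the other arrays of either group gave adjusted p-values of 0.0545 to 0.255. Under median scaling, quantile normalization and normexp they were 0.103, 0.141 and 0.149. The second Eomes probe was above background in 2 of 3 transgenic and none of 5 wild type arrays. Its means were -6.71 in APP-PS1_WASHOUT and -8.58 in WT_WASHOUT, in log2 units, and it was not called (limma, adjusted p = 0.0547). With the dim arrays raised to the background floor the ratio was 1.24-fold. Not all transgenic arrays were above background, so that ratio does not bound the difference from below. The adjusted p of this second probe in limma was 0.0289 with slide as a random block and 0.0378 with the replicate block. It was 0.0296 in a fit on only those groups, 0.0361 without WT_WASHOUT replicate 5 and 0.0406 without APP-PS1_WASHOUT replicate 2. The other alternatives did not call this probe. The 1.24-fold ratio sets the bright mean against, on each dim array, the higher of the probe's own signal and the dimmest signal well above background.

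Immature neuron and granule cell genes did not pass the test. Dcx was at -1.03, -1.10, -1.77, -0.90 and -0.998 in WT_WASHOUT and at -1.44, -1.82 and -1.17 in APP-PS1_WASHOUT. Wild type replicate 3 alone lay among the transgenic values, and the difference was -0.31 (SE 0.21, adjusted p = 0.297). The second Dcx probe differed by -0.47 (adjusted p = 0.422), and by -1.31 under quantile normalization (adjusted p = 0.0349). Sox11 differed by -0.23, Neurod1 by 0.07, Prox1 by 0.26, Dsp by 0.05, C1ql2 by 0.28 and Calb1 by -0.20, with adjusted p-values of 0.316 to 0.971. Under median scaling Calb1 was the gene called in place of Mki67, at -0.41 (adjusted p = 0.0303).

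Among the other cell cycle genes 3 rose and 1 fell of 21. Nusap1, a spindle protein, rose by 1.57 (SE 0.28, adjusted p = 0.000273), Cdc20, an activator of the anaphase-promoting complex, by 0.54 (SE 0.17, adjusted p = 0.0246) and Birc5, or survivin, by 0.33 (SE 0.12, adjusted p = 0.0410). Ccnb2, a mitotic cyclin, fell by 0.50 (SE 0.14, adjusted p = 0.00889). Nusap1 and Ccnb2 were called in the same direction under median scaling, quantile normalization, normexp and the deposited scores, whereas Cdc20 and Birc5 were called under none of these. The Nusap1 difference shrank to 1.35 with median scaling, 1.01 with quantile normalization and 0.37 with normexp. Its group means were -4.71 in APP-PS1_WASHOUT and -6.27 in WT_WASHOUT. The median of the cell cycle list was 0.06 and turned to -0.15 under median scaling. The summed signal of the list was 28.0 to 33.9 in WT_WASHOUT and 26.7 to 28.3 in APP-PS1_WASHOUT, and Cdk1 was not well above background on any array of either group.

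Of 18 progenitor and immature neuron genes 2 fell. Marcksl1, a membrane-bound actin regulator of young neurons, fell by 0.71 (SE 0.15, adjusted p = 0.00112) and Insm1, a zinc finger factor of intermediate progenitors, by 0.50 (SE 0.12, adjusted p = 0.00301). None of 13 stem cell genes or 14 granule cell genes was called (limma), with 3 and 0 at an unadjusted p under 0.05. The summed stem cell signal was higher in APP-PS1_WASHOUT without overlap, at 31.6 to 37.0 against 27.4 to 30.3 in WT_WASHOUT. The median difference of these 13 genes was -0.0004. Of 33 niche genes 3 rose, which were the receptor Fgfr1 by 0.73 (SE 0.10, adjusted p = 1.2e-05), the growth factor Egf by 1.47 (SE 0.32) and the BMP target Id3 by 0.50 (SE 0.18). The niche sum was also higher without overlap, at 44.2 to 46.7 in APP-PS1_WASHOUT against 37.6 to 43.5 in WT_WASHOUT, and the median difference of the list was 0.10. Marcksl1, Insm1, Fgfr1 and Egf were called under all 4 other scalings, and Id3 was lost under median scaling (0.29) and with the deposited scores. Under median scaling 5 of the 18 progenitor and immature neuron genes and 1 of the 14 granule cell genes fell. The counts of the main scaling stand against the 25.8% of all probes called. Under median scaling 33.5% of all probes were called, and 8991 of 43973 were called lower.

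Marker lists of other cells were counted in the same comparison, where 25.8% of all probes were called (33.5% under median scaling). Of 11 microglial genes 9 rose (7 under median scaling), and their summed signal was 24.5 to 29.7 in WT_WASHOUT and 36.8 to 53.1 in APP-PS1_WASHOUT. Microglia can divide, so Mki67 in whole tissue does not name the cycling cell, and the part of microglia in its level was not tested. Of 10 immediate early genes 6 fell (9 under median scaling), with summed signals of 59.9 to 80.7 in WT_WASHOUT and 31.4 to 48.2 in APP-PS1_WASHOUT. The sum was 26.4 to 42.7 in WT_CTR, so that WT_WASHOUT stood above WT_CTR while APP-PS1_WASHOUT overlapped it. Between the wild type stages these genes had a median difference of 1.02, with 0 of 10 called in limma and 8 at an unadjusted p under 0.05. Their part in the Mki67 difference was not tested. Of 9 interneuron genes Sst rose by 0.59 while Lhx6 fell by 1.11 and Gad1 by 0.50. The interneuron sum was higher in APP-PS1_WASHOUT without overlap, at 237 to 251 against 196 to 231 in WT_WASHOUT, with a median difference of 0.09. Lhx1 of the 5 Cajal-Retzius genes rose by 1.38, Drd2 of the 6 mossy cell genes by 1.69 and Lef1 of the 8 genes measured for neighbouring regions by 0.80. Of 7 CA3 genes 1 was called, Iyd, which was not well above background on any WT_WASHOUT array. Shares of 3 of 9, 1 of 5, 1 of 6, 1 of 8 and 1 of 7 are near or below the share of all probes. Sst was lost under median scaling, quantile normalization and normexp. Lef1 was lost under median scaling and with the deposited scores, and Drd2 under quantile normalization and normexp. Lhx1 was lost under all 4 other scalings, whereas Lhx6 and Gad1 were called under all 4, and no called gene of the lists changed sign. The oligodendrocyte progenitor, CA2 and choroid plexus lists had no call in limma, with 2, 1 and 0 genes at an unadjusted p under 0.05.

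The fourth comparison asks whether earlier urolithin A still mattered after washout (APP-PS1_UA-WASHOUT against APP-PS1_WASHOUT, all on slide 3 but mostly in different array rows). None of the 10 genes changed in limma, where 0.0591% of all probes were called. The share of all probes called was 0.0341% with array row as a block, 1.74% with the deposited scores and 5.78% without the filter on dim signal. Between 73.8% and 76.9% of probes were well above background in APP-PS1_WASHOUT, and between 63.7% and 74.8% in APP-PS1_UA-WASHOUT. What part this had in the differences was not tested. An unadjusted p under 0.05 was found for 0 of the 10 genes and 7.95% of all probes. No gene had groups without overlap, against 5.65% of all probes. The adjusted p-values began at 0.798, for Dsp, and the median difference was -0.14, beside -0.02 over all probes.

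Mki67 was at -2.72, -3.05, -3.21, -2.95 and -2.92 in the formerly treated mice, a difference of 0.06 (SE 0.15, interval -0.25 to 0.37). Dsp was at -1.66, -1.23, -2.97, 0.86 and -0.06 in formerly treated mice and at 0.28, 0.37 and -0.97 in untreated mice. The formerly treated mice held both the highest and the lowest value, and the difference was -0.90 (SE 0.67, adjusted p = 0.798). Prox1 was at 0.12, 0.63, 0.09, 1.39 and 0.83 against 0.93, 1.31 and 0.58, with the same mouse, replicate 4, highest. Its difference was -0.33 (SE 0.27). The interval for Eomes was -3.85 to 0.92, while those of Dcx (-0.40 to 0.47), Sox11 (-0.57 to 0.57) and Calb1 (-0.37 to 0.20) were narrower. No gene of the stem cell, cell cycle, immature neuron, granule cell or niche lists was called (limma), with 2, 0, 0, 1 and 5 at an unadjusted p under 0.05. Without overlap, the cell cycle sum was lower in formerly treated mice, at 24.4 to 26.1 against 26.7 to 28.3. So was the CA3 sum, at 17.7 to 22.1 against 22.6 to 25.4. The median differences of these 2 lists were -0.03 and -0.24.

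Wild type mice were also compared between the stages (WT_WASHOUT against WT_CTR, slide 2 against slide 1). None of the 10 genes changed in limma, where 0.0114% of all probes were called, and 2 had an unadjusted p under 0.05, beside 8.56% of all probes. Those were Mki67, at -0.38 (SE 0.14, adjusted p = 0.488), and Top2a, at -0.60 (SE 0.28, adjusted p = 0.567). No gene had groups without overlap, against 1.86% of all probes. The difference of the transgene effect between the stages was called for none of the 10 genes, where 13.1% of all probes were called (limma). With array row as a block 1.71% of all probes were called. None of the 10 had an unadjusted p under 0.05, beside 26.7% of all probes. For Mki67 it was 0.36 (SE 0.21, adjusted p = 0.295) and for Eomes 3.32 (SE 1.65, adjusted p = 0.206). So the Mki67 call after washout was not shown to differ from the end of treatment. The difference of the urolithin A effect between the stages was likewise called for none, with 0.00227% of all probes called in limma. None of the 10 had an unadjusted p under 0.05, beside 10.7% of all probes. It was -0.39 (SE 0.20, adjusted p = 0.504) for Calb1.

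Apart from the groups, the genes varied together from mouse to mouse. Each array's deviation from its group mean was taken for every gene, and the 45 pairs were tested with 100000 permutations within groups. By Pearson's r 6 pairs had an adjusted p under 0.05 and 5 of these also by Spearman's rho. The granule cell genes Prox1 and Dsp had r = 0.90 and rho = 0.89 over 24 arrays (adjusted permutation p = 0.000225 and 0.00045). Prox1 and C1ql2 had r = 0.69 and rho = 0.62 (adjusted permutation p = 0.00594 and 0.0358), and Dsp and C1ql2 had r = 0.63 and rho = 0.58 (adjusted permutation p = 0.0142 and 0.0577). Calb1 did not join them, with r of -0.28 to Prox1 and -0.14 to Dsp.

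Dcx ran opposite to Prox1 and Dsp. Its r was -0.86 with Prox1 (rho = -0.81, adjusted permutation p = 0.000225 and 0.0012) and -0.85 with Dsp (rho = -0.90, adjusted permutation p = 0.00045 and 0.0012). With C1ql2 it was -0.59 and with Calb1 0.06 (adjusted permutation p = 0.0652 and 0.878). Mice with more Prox1 and Dsp than their group thus had less Dcx. Without the 2 arrays farthest from the median the r of Dcx with Prox1 was -0.78, that of Dcx with Dsp -0.82 and that of Prox1 with Dsp 0.85.

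Mki67 and Top2a had r = 0.78 and rho = 0.69 (adjusted permutation p = 0.00495 and 0.0277), and 0.71 without the 2 farthest arrays. Among 18204 genes compared, Top2a was the one whose deviations were most like those of Mki67. Mki67 and Dsp had r = 0.52 (adjusted permutation p = 0.067) and rho = 0.59 (adjusted permutation p = 0.0394). Within the 8 arrays of slides 1, 2 and 3 the r of Mki67 with Top2a was 0.73, 0.85 and 0.80. For Prox1 with Dsp it was 0.87, 0.87 and 0.93, for Dcx with Prox1 -0.84, -0.83 and -0.89, and for Dcx with Dsp -0.97, -0.83 and -0.85. With normexp signals these 4 pairs had r of 0.62, 0.92, -0.86 and -0.87. The r of Top2a with Calb1 was -0.63 over all arrays (adjusted permutation p = 0.0652) and turned from -0.90 on slide 2 to 0.56 on slide 3.

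**Figure D4:**
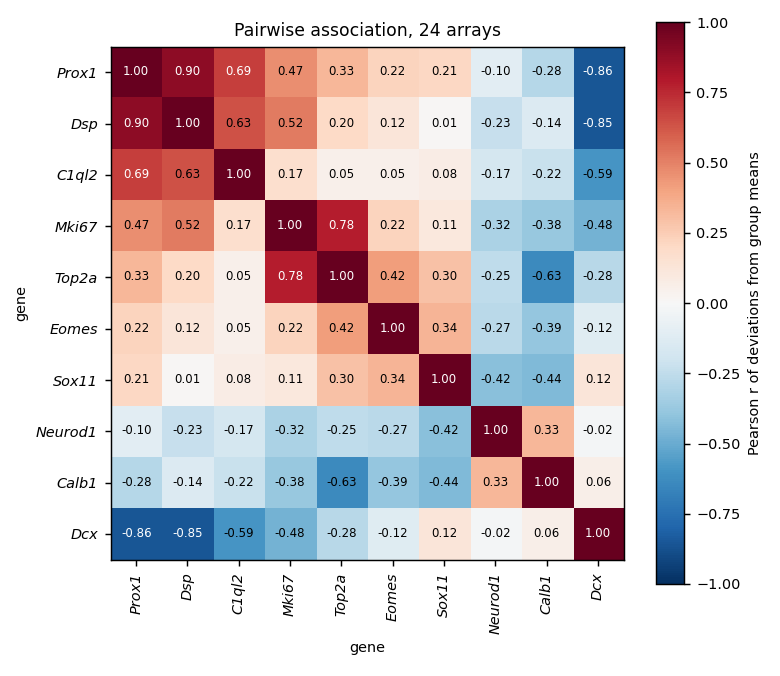
Pearson r between each pair of the 10 genes over 24 arrays, computed on deviations from group means. Red is positive and blue negative. Prox1, Dsp and C1ql2 form a block of r from 0.63 to 0.90, Dcx is at -0.59 to -0.86 with them, and Mki67 and Top2a stand at 0.78.

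**Figure D5:**
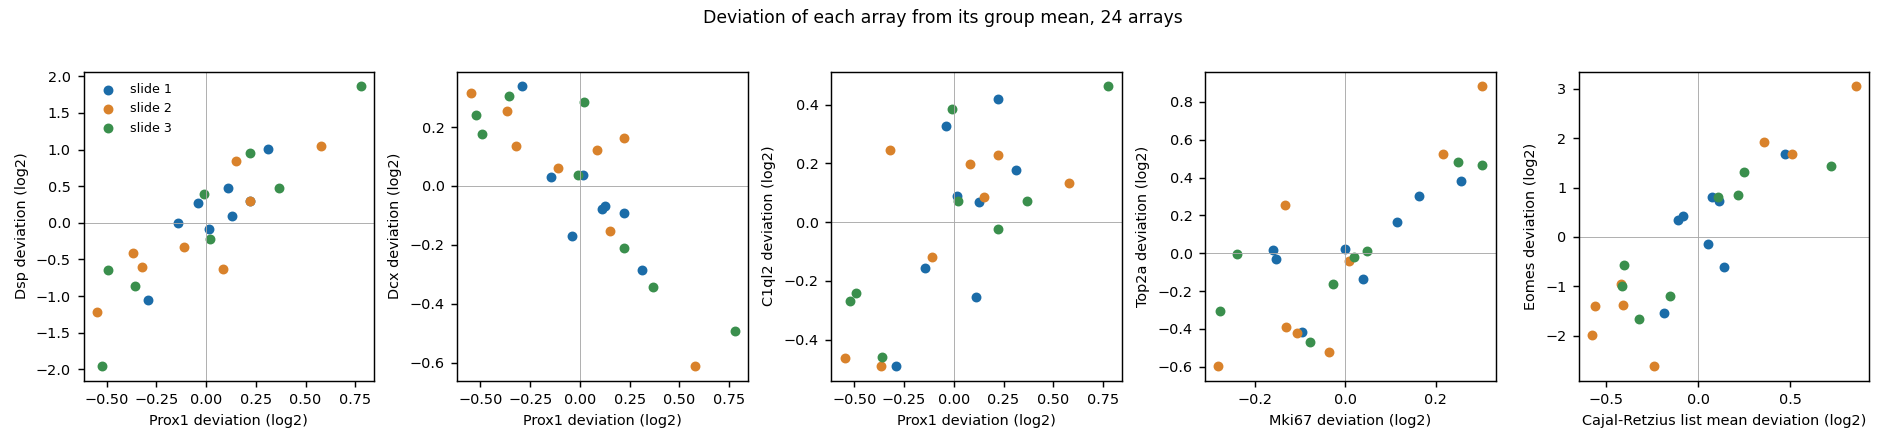
Deviation of each of the 24 arrays from its group mean, in log2 units, for 5 pairs, coloured by slide. The last panel has the mean of 5 Cajal-Retzius genes on its horizontal axis. Within each slide r is positive for Prox1 with Dsp (0.87 to 0.93) and for Mki67 with Top2a (0.73 to 0.85), and negative for Prox1 with Dcx (-0.83 to -0.89).

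The same deviations were set against the mean of each of 16 marker lists, none of which holds any of the 10 genes, with p-values adjusted over 160 pairs. The 14 further granule cell genes followed Prox1 (r = 0.97, rho = 0.94), Dsp (r = 0.93, rho = 0.93) and C1ql2 (r = 0.69, rho = 0.61) and ran opposite to Dcx (r = -0.86, rho = -0.85). The adjusted permutation p was 0.000533 for Prox1, Dsp and Dcx and 0.0294 for C1ql2 by Pearson, and 0.0008, 0.0008, 0.00213 and 0.0491 by Spearman. Lct, a granule cell marker by its transcript, had r = 0.94 with Prox1 and 0.95 with Dsp. Dcx followed the list of progenitors and immature neurons (r = 0.65, rho = 0.67, adjusted permutation p = 0.0379 and 0.043), of which 14 of 18 genes had a positive r, led by Elavl4 at 0.81. It ran opposite to the CA3 list (r = -0.68, rho = -0.70, adjusted permutation p = 0.0379 and 0.0259). On slide 1 the r of Dcx with the immature neuron list was 0.29.

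With the mean of the cell cycle list Mki67 had r = 0.44 and Top2a r = 0.48 (adjusted permutation p = 0.278 and 0.272), neither past the threshold. Of its 21 genes 15 had a positive r with Mki67 (median 0.22) and 13 with Top2a (median 0.26), and Cenpe, a kinetochore motor, had -0.62 and -0.54.

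Eomes varied with the genes of Cajal-Retzius cells, early-born neurons of the hippocampal surface. Its r with the mean of Reln, Trp73, Lhx1, Lhx5 and Ndnf was 0.88 and its rho 0.88 (adjusted permutation p = 0.0044 and 0.0072), it was 0.89 without the 2 farthest arrays, and it was 0.69, 0.93 and 0.87 on slides 1, 2 and 3. Lhx1 had r = 0.92 with Eomes and Reln -0.10. The r of Eomes was 0.22 with Mki67 and 0.42 with Top2a (adjusted permutation p = 0.635 and 0.506), and 0.48 with the cell cycle list (adjusted permutation p = 0.308). Of the immature neuron list Igfbpl1 was closest, at 0.82. With the choroid plexus and ependyma list r was 0.67 and rho 0.69 (adjusted permutation p = 0.0648 and 0.0483), at 0.07 on slide 1 and 0.98 on slide 2. The difference between the r with Cajal-Retzius genes and that with the cell cycle genes was not tested.

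Microglial genes followed 2 of the granule cell genes. The r with the microglial list was 0.67 for Prox1 (rho = 0.69, adjusted permutation p = 0.0408 and 0.043) and 0.69 for C1ql2 (rho = 0.70, adjusted permutation p = 0.0443 and 0.043). On slides 1, 2 and 3 it was 0.09, 0.61 and 0.85 for Prox1 and 0.72, 0.68 and 0.75 for C1ql2. The points share a hybridisation and a dissection, so regional makeup of the tissue piece and expression per cell cannot be told apart in any of these relations.

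The nearest genes of each member, by Pearson r of deviations over 24 arrays among 18204 genes, were as follows. Dcx was closest to Resp18 (0.95) and Slc35f1 (0.94), and Sox11 to Zfp236 (0.85) and Senp2 (0.84). Neurod1 was closest to Nkrf (0.93) and Tmem41a (0.92). For Eomes they were Lhx1os, a transcript of the strand opposite Lhx1 (0.93), and Sln (0.93). Mki67 was closest to Top2a (0.78) and Kdm4c (0.78), and Top2a to Fam204a (0.83) and Fignl1 (0.82). Prox1 was closest to Cebpd (0.95) and Epha7 (0.95), Dsp to Dgkh (0.97) and Slc26a10 (0.96), and C1ql2 to Krt9 (0.86) and Olfr53 (0.85). Calb1 was closest to Tspan18 (0.89) and Ppp4r4 (0.86).

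The 5 genes with a second probe differed in how well their probes followed each other. Over 24 arrays the r of deviations between the 2 probes was 0.77 for Sox11 and 0.44 for Calb1, whose second probes were above background on all 24 arrays. It was 0.19 for Top2a, 0.17 for Dcx and 0.09 for Eomes, whose second probes were above background on 6, 16 and 3 arrays. What is said of Dcx, Top2a and Eomes above therefore rests on 1 probe each.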

How the data were processed

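RNA from whole hippocampus of 24 mice was labelled with Cy3 and hybridised to 1-colour Agilent mouse arrays. Per the file headers, the deposited scanner files were made with Feature Extraction 12.0.3.1 and hold, for each spot, a background-corrected processed signal intensity, which is the value used here. The authors also deposited a table of normalized scores. Set against the scanner values, each column of that table was the array's log signal minus its mean, divided by its SD, to within 0.005, with column medians of -0.17 to -0.06, and it served as an alternative. The match settles its scale, centring and direction. The array design names the genome build mm9, and gene positions and promoters are RefSeq's on GRCm38.p6.

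Control spots and flagged outlier spots were left out, and spots of one probe were averaged. Signals were taken as log2 minus each array's 75th percentile (1285 to 2292 on the linear scale). Of 56605 probes 43988 were well above background on at least 3 arrays, and 43973 with at least 2 values in every group were tested. Of all probes 32989 were named with 1 gene symbol through their RefSeq accession and 23616 had none. The 6 group means were fitted to all 24 arrays with limma 3.58.1 in R 4.3.3, p-values were adjusted by Benjamini-Hochberg over all tested probes of a comparison, and a call is an adjusted p under 0.05. Counts of genes use the brightest kept probe of each gene. Tests are two-sided. The script was tested on simulated data. Correlations used Python 3.11.15 with numpy 2.4.6, pandas 2.3.3 and 100000 permutations within groups, and figures used matplotlib 3.10.9.

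The 10 genes and the 16 marker lists were chosen with earlier results of these data known. The text names all 10 genes, from each list the called genes with the smallest adjusted p (at most 4), or the brightest where none was called, and for each of the 10 genes the 2 nearest by r. Elavl4, Igfbpl1, Lct, Cenpe, Lhx1 and Reln in the correlations, and Cdk1, were chosen after their values were seen. Alternatives were normexp background correction with an offset of 50 and quantile normalization, quantile or median scaling, the deposited scores, other filters, 1 probe per gene, slide, array row or replicate number as a block, array weights, fits on fewer groups and leaving out each array. The files hold no mean spot signal, so normexp used the median spot signal, a choice made after seeing the data, as was running the marker lists under the other scalings. A gene of the CA1 list and the full strain name are not reported here.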

Additional observations from a re-analysis of the deposited data

Results flagged for a closer look

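Among 60 groups of 4 or 5 arrays, 5 held an array that stood far from the rest of its group for one of the 15 probes, and chance gives about 1 in 20. Dcx was at -1.77 in WT_WASHOUT replicate 3, with the other 4 mice at -1.10 to -0.90, and that mouse had the highest Prox1 and Dsp of its group. Neurod1 was at -1.05 in WT_WASHOUT replicate 5, with the others at 0.55 to 0.96. The second Calb1 probe was at -3.93 in the same mouse, with the others at -2.10 to -1.67. Dsp was at -0.50 in WT_CTR replicate 2, with the others at 0.82 to 1.02. C1ql2 was at -1.68 in APP-PS1_UA replicate 2, with the others at -1.14 to -1.02.

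For 6 genes of the marker lists, and for none of the 10 genes, the transgene effect differed between the stages by a test of the difference itself (limma, washout minus end of treatment). The difference was 1.42 for Nusap1 (SE 0.40, adjusted p = 0.0226), 0.74 for Fgfr1 (SE 0.14, adjusted p = 0.00147) and 1.78 for Drd2 (SE 0.55, adjusted p = 0.0360). It was -1.21 for Lhx6 (SE 0.25, adjusted p = 0.00259), -1.15 for Ier2 (SE 0.35, adjusted p = 0.0324) and -1.41 for Dusp1 (SE 0.42, adjusted p = 0.0320). The calls of Nusap1 and Drd2 were lost under median scaling (1.16 and 1.53), quantile normalization (0.81 and 0.94), normexp (0.31 and 0.33) and the deposited scores, and those of the other 4 genes were kept under each. Of all probes 13.1% were called in this comparison, and 1.71% with array row as a block. The slides differ between the groups after washout, so stage, genotype and slide cannot be told apart there.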

How the results depend on the processing

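The count of 1 of the 10 genes called between APP/PS1 and wild type mice after washout was the result that moved. It was 0 with normexp, with quantile normalization, with the deposited scores and with a fit on only those groups. It was 2, Eomes and Mki67, with slide as a random block and with array row as a block. Leaving out each array in turn gave 0 (without APP-PS1_WASHOUT replicate 2) to 2 (without WT_WASHOUT replicate 5). Mki67 was 0.53 with an adjusted p of 0.0745 in the fit on only those groups and 0.05 in units of the deposited scores (adjusted p = 0.399). Eomes was 2.79 (adjusted p = 0.0407) with the random block and 4.56 (adjusted p = 0.0149) with array row. The consensus correlation within slides was -0.06. Median scaling also gave 1 gene, but Calb1 in place of Mki67. The cause was not tested. In the other comparisons no gene was called by its brighter probe under any alternative run. Of 1576 alternative values of single genes, 1419 kept their direction and call, 6 lost a call, 4 gained one, 147 uncalled ones changed sign, and no called value changed sign. Slide as a fixed block could not be fitted for the transgene comparison after washout or for the difference of the transgene effect between the stages. The wild type stages share no slide either, and that fit linked them only through the APP-PS1_UA arrays.

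Same-numbered replicates did not deviate together (r of -0.25 to 0.25 over 16 pairs, 5 of them over 0.1). The labels do not say whether the numbers pair the mice, and the main fit used no pairing. With the replicate number as a block, 1 gene was called after washout, Mki67 at 0.57 (adjusted p = 0.0176), and none in the other comparisons. Signal close to background limits Eomes and the second probes of Eomes and Top2a.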
